A study of Mus musculus with 12 samples.

Results

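Autophagy, mitophagy and lysosome genes were followed across 4 groups of mouse hearts. The set was taken by name: every non-control probe of the array whose gene name in the scanner files equalled 1 of 46 listed symbols. These 46 genes, of 37074 gene names on the array, carried 92 of its 56605 probes. Of these, 81 probes were bright enough to be tested, and all 46 genes kept at least 1 of them. Where a gene had several, the tested probe with the highest mean signal stands for the gene below, and the others are given where they differ.

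Heart RNA came from 12 male C57BL6/J mice aged 5 months, 3 mice per group with 1 array per mouse. Control mice (C) received neither streptozotocin nor pargyline. Diabetic mice (D) had received injections of streptozotocin, which destroys beta cells of the pancreas, on 5 days at a daily dose of 50 mg/kg, and counted as diabetic at a blood glucose of at least 17 mM. Pargyline, an inhibitor of the monoamine oxidases of the outer mitochondrial membrane, was dosed at 50 mg/kg daily over 12 weeks in non-diabetic mice (C+P) and streptozotocin-treated mice (D+P). The study asked how this inhibition alters the diabetic heart, autophagy included. All groups were wild type, and D and D+P mice had both been exposed to streptozotocin itself, so diabetes and the toxin cannot be told apart.

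Autophagy encloses cytoplasm in a double membrane, the autophagosome, which fuses with the lysosome. The ULK kinases start the process, the class III phosphatidylinositol 3-kinase complex marks the site of membrane growth, and 2 conjugation reactions attach small ATG8 proteins (the LC3 and GABARAP families) to the membrane lipid. Cargo receptors bind ATG8 proteins on one side and their load on the other, and in mitophagy the load is a damaged or surplus mitochondrion. Heart muscle cells hold many mitochondria and seldom divide, and inherited loss of LAMP2 or of acid alpha-glucosidase (Gaa) leads to cardiomyopathy. Much of autophagy is controlled through kinases and protein turnover, which messenger RNA levels do not show.

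The arrays differed in quality. Between 23556 and 29231 of 59305 spots were well above background, and spots of the same probe had a median coefficient of variation that ran from 3.89% to 23.2%, highest on D replicate 1, C+P replicate 1 and D+P replicate 1, all in column 1 of their slides. The C and D arrays shared 1 slide and the C+P and D+P arrays another, so pargyline and slide cannot be told apart. Non-diabetic arrays sat in row 1 and diabetic arrays in row 2 of each slide, and diabetes cannot be told apart from the row either. The representative probe was well above background on all 12 arrays for 44 of the 46 genes, and on 11 arrays for Pik3c3 and Nbr1. No member probe was saturated. All 6 cardiomyocyte markers (Myl2, Myh6, Tnnt2, Tnni3, Actc1 and Ryr2) were well above background on every array. In whole tissue, fewer cells of a type and less RNA per cell cannot be told apart.

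There were 6 comparisons, written here as signed log2 differences of normalized signal. Below, the drug is pargyline, and a difference "without the drug" or "under the drug" is a difference between diabetic and non-diabetic hearts. Diabetes was compared without the drug (D minus C), under the drug (D+P minus C+P) and as the average of both. The drug was compared in non-diabetic hearts (C+P minus C) and in diabetic hearts (D+P minus D), and the interaction is the diabetes difference under the drug minus that without it. No member passed the adjusted threshold of 0.05 in any of the 6 by limma, with p-values adjusted over all 30859 tested probes. Among representative probes the smallest adjusted p of a member was 0.311, for diabetes averaged over both drug states. Calls were rare over the whole array too. Of all tested probes, 0.00648% were called for diabetes without the drug and 0.0454% for diabetes under the drug, 0.107% for diabetes averaged over both drug states and 0.0324% for the drug in non-diabetic hearts, 0% for the drug in diabetic hearts and 0.00648% for the interaction. The t-test named in the study's methods was run with the same adjustment, in place of the adjusted Bonferroni correction named there. It called 0 members in each of the 4 pairwise comparisons. Of all probes it called 0% for diabetes without the drug and 0.00324% in each of the others.

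At an unadjusted p under 0.05, there were 2 members for diabetes without the drug, where 10.8% of all tested probes did. For diabetes under the drug there were 3 (7.46% of all tested probes) and 6 for diabetes averaged over both drug states (11.4%). For pargyline the counts were 0 for the drug in non-diabetic hearts (4.43%) and 0 for the drug in diabetic hearts (13.3%), and for the interaction 1 (7.03%). As shares of the 46 members these were 4.35%, 6.52%, 13%, 0%, 0% and 2.17%. The members' share thus lay below that of all probes in 5 of the 6 comparisons. By the methods' t-test the members under 0.05 numbered 5 for diabetes without the drug (11.4% of all probes by that test) and 2 under it (6.55%), and 2 for the drug in non-diabetic hearts (7.69%) and 1 in diabetic hearts (8.34%).

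**Figure D1:**
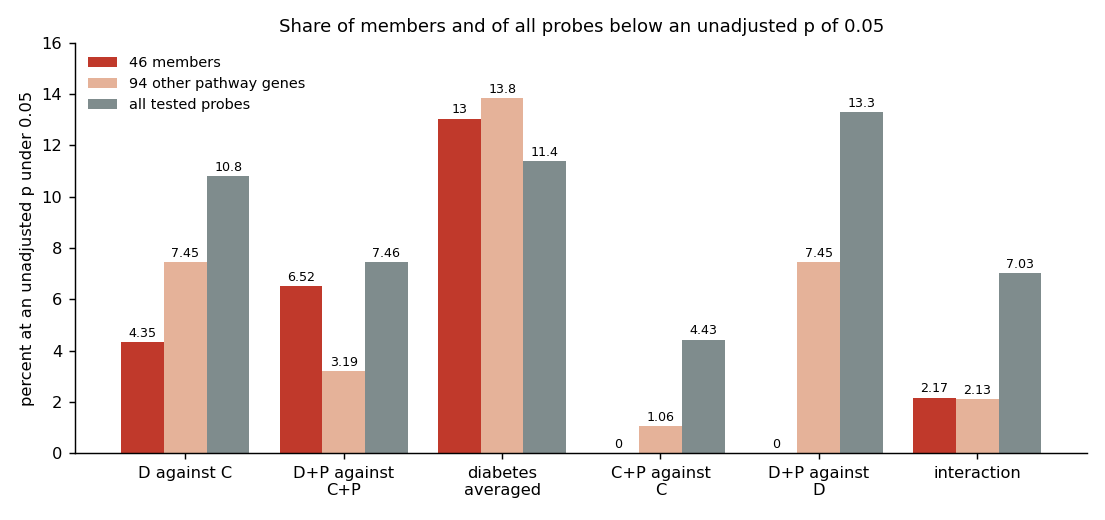
Bars give the percentage at an unadjusted limma p under 0.05 in each comparison, for the 46 members, for 94 other genes of the same pathways and for all 30859 tested probes. The members' bar exceeds that of all probes only for diabetes averaged over both drug states (13% against 11.4%).

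The members as a group stayed close to 0. Their median log2 difference was 0.07 without the drug, where all tested probes had a median of -0.01, and 0.04 under the drug, against 0.01. Without the drug 25 of 46 members were higher, and 25 again under the drug. For the drug in non-diabetic hearts the median was -0.01 with 22 members higher, and for the drug in diabetic hearts it was -0.06 with 18 higher. The median absolute difference of the members without the drug was 0.14, against 0.25 for all tested probes. It was 0.14 also for 94 other genes of these pathways represented by their brightest probe. The members' 95% intervals had a median half-width of 0.47 on the log2 scale. Differences smaller than that interval could therefore not be seen for a typical member, and a p that missed the threshold does not show equal levels. The members' representative probes were also less scattered within groups than all tested probes. Median standard deviations were 0.10 against 0.17 for C, 0.24 against 0.34 for D, 0.18 against 0.28 for C+P and 0.22 against 0.28 for D+P. Each member was represented by its brightest tested probe, and the part of brightness in this was not tested.

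The groups of 3 arrays were also compared for overlap. Without the drug, 5 members lay wholly higher (11.9% of all tested probes) and 4 wholly lower (10.4%), together 9 of 46 where 22.3% of all probes did not overlap. Under the drug 3 lay wholly higher (7.32%) and 4 wholly lower (6.57%), where 13.9% of all probes did not overlap. Just 3 members did so in both comparisons and in the same direction, namely Lamp2 (higher, 1.21% of all probes) and Atg4d and Ctsb (lower, 1.29%), where 2.50% of all probes did in either direction.

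**Figure D2:**
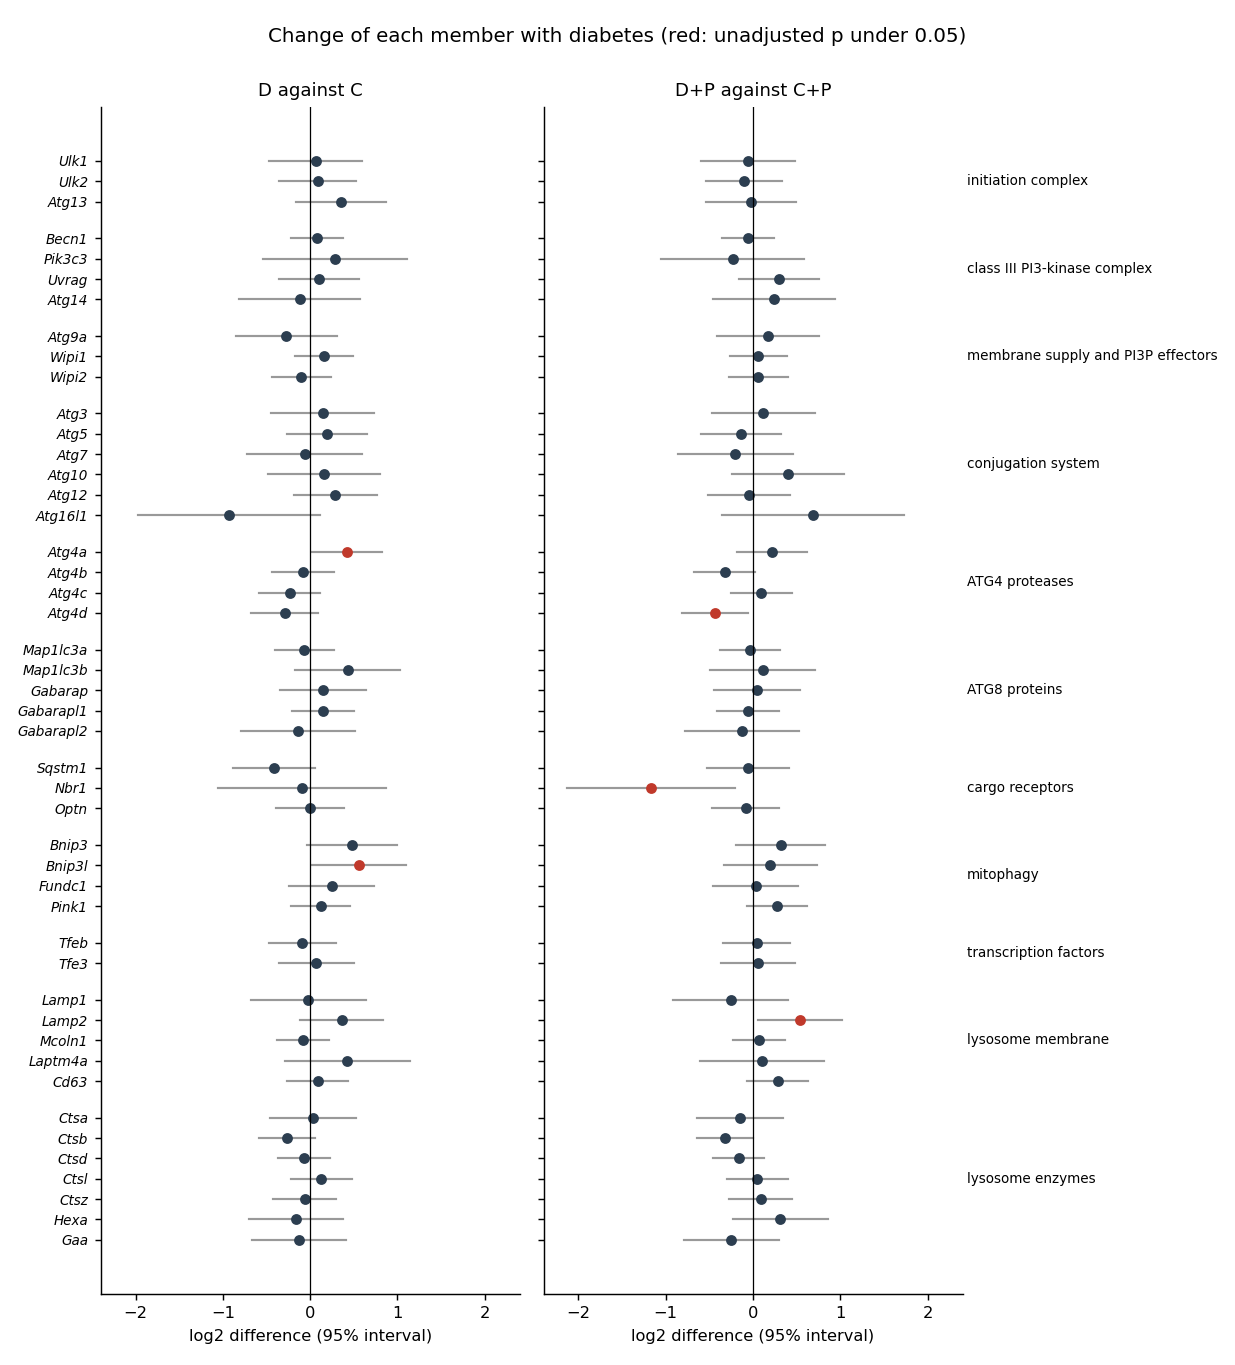
Log2 difference of each member's representative probe with its 95% interval (limma), D minus C on the left and D+P minus C+P on the right, grouped by role. Red marks the members at an unadjusted p under 0.05 (Atg4a and Bnip3l on the left; Atg4d, Nbr1 and Lamp2 on the right), none of which passed after adjustment, and most intervals cover 0.

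TFEB and TFE3 are the transcription factors that switch on lysosome and autophagy genes. They bind the CLEAR element, whose core is the E-box CACGTG. Neither messenger passed the test in any comparison. Tfeb measured 7.95, 8.0 and 7.92 on the C arrays and 7.58, 7.95 and 8.07 on the D arrays, on the log2 scale of normalized signal. Its difference was -0.09 without the drug (95% interval -0.47 to 0.29) and 0.04 under the drug (-0.34 to 0.43). The ranges overlapped in every pairing. Tfe3 differed by 0.07 without the drug (-0.36 to 0.50) and 0.06 under the drug (-0.37 to 0.49).

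To show the sequence through which these factors act, promoter windows of 300 bases (250 before and 50 after the annotated start, RefSeq, GRCm38.p6) were searched on both strands for TCACGTG, the E-box with one flanking letter. Windows were matched by symbol for 39 of the 46 members, and 8 of these 39 (20.5%) held the letters, as did 4.29% of the 27025 genes with a window and 19 of 75 other pathway genes (25.3%). The plain E-box CACGTG, which every TCACGTG contains, was found in 11 of the 39 members (28.2%) and in 8.09% of all genes with a window. The longer palindromes were rarer: TCACGTGA was found in 4 of the 39 (10.3%) and in 1.12% of all genes, and the same letters with a G before and a C after them in 0 of the 39, in 4 of the 75 other pathway genes (5.33%) and in 0.37% of all genes. Below, 1 stretch is printed for each of the 8 members, 5′ to 3′ on the gene's strand, with every TCACGTG or its reverse complement CACGTGA in capitals. Where both share one E-box the capitals run to 8 letters.
Lamp1 (chr8:13159089-13159160, plus strand): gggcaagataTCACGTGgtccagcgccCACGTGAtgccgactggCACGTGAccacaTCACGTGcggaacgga
Mcoln1 (chr8:3500464-3500490, plus strand): gcgccccgcTCACGTGAccgcggcgca
Ctsd (chr7:142387909-142387935, minus strand): gcccgcgtcTCACGTGAcccgttgagg
Ctsa (chr2:164833751-164833772, plus strand): agcaaactgTCACGTGAtgcag
Gaa (chr11:119267812-119267838, plus strand): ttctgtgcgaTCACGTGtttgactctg
Atg3 (chr16:45158748-45158774, plus strand): agagtcgagTCACGTGAggccttaggt
Atg7 (chr6:114670953-114670979, plus strand): atattggtggTCACGTGtgcagtaagt
Atg14 (chr14:47568419-47568445, minus strand): aacaaaatccCACGTGActggccctga
Lamp1 held 4 separate copies within the 72 bases shown, and the genes of the lysosome itself supplied 5 of the 8 members. These 8 genes had a median log2 difference of -0.07 without the drug, with 2 of 8 higher, and of -0.16 under the drug, with 3 of 8 higher. The 31 members with a window and without the letters had medians of 0.09 and 0.06. None of the 8 was at an unadjusted p under 0.05 in any comparison. A match of letters is a description of the window and no measurement of binding.

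The initiation complex was represented by the kinases Ulk1 and Ulk2 and their scaffold partner Atg13. All 3 had small positive differences without the drug, from 0.06 to 0.35 (2 of 3 with normexp background correction), and small negative ones under the drug, from -0.10 to -0.02. The value of 0.35 belonged to Atg13, which measured 10.69, 11.65 and 11.60 on the C arrays and 11.73, 11.57 and 11.70 on the D arrays. C replicate 1 stood apart there, with the other 11 arrays between 11.52 and 11.81, and without it the Atg13 difference was 0.04. The sign of Ulk1 turned negative with normexp (-0.17) and without D replicate 1 (-0.12).

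Of the class III phosphatidylinositol 3-kinase complex, Becn1 is the scaffold, Pik3c3 the catalytic subunit, and Atg14 and Uvrag the exchangeable subunits that direct it. Their differences ran from -0.12 to 0.28 without the drug and from -0.23 to 0.30 under the drug, and 0 of 4 reached an unadjusted p under 0.05. Becn1 was the steadiest of them, with all 12 arrays between 7.67 and 7.94. Pik3c3 measured 6.56 and 7.01 on the other two D+P arrays and 5.28 on D+P replicate 3. Its difference of -0.23 under the drug was 0.27 without that array. Atg9a, the membrane protein whose vesicles seed the growing autophagosome, had a difference of 0.52 for the drug in diabetic hearts (95% interval -0.06 to 1.11, adjusted p = 0.414). Its signal was 7.61, 7.21 and 6.75 on the D arrays and 7.66, 7.62 and 7.86 on the D+P arrays, which did not overlap by a narrow margin. Without D replicate 3 the Atg9a difference was 0.30. The C arrays, at 7.47, 7.68 and 7.24, and the C+P arrays, at 7.06, 7.63 and 7.93, lay across both. Wipi1 and Wipi2, which read the lipid mark of the kinase, differed by 0.16 and -0.10 without the drug and by 0.06 each under the drug.

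In the conjugation system 1 gene, Atg16l1, had the largest difference of any member for diabetes without the drug, for the drug in diabetic hearts and for the interaction. ATG16L1 joins the ATG12-ATG5 conjugate and directs it to the membrane where LC3 is attached. On the representative probe of Atg16l1 (chr1:89685064-89685123, mm9) the C arrays measured 11.46, 11.66 and 11.56, and the D arrays 10.82, 11.01 and 10.08. The D+P arrays measured 11.33, 11.87 and 11.76, and the C+P arrays 9.63, 11.57 and 11.70. All D arrays were below all C and all D+P arrays, while C+P replicate 1 was the lowest of the 12. The log2 difference was -0.93 (SE 0.47, adjusted p = 0.50) without the drug, 0.68 (SE 0.47, adjusted p = 0.778) under the drug and 1.02 (SE 0.47, adjusted p = 0.386) for the drug in diabetic hearts. The value under the drug rested on C+P replicate 1, without which it was 0.018.

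The interaction for Atg16l1 was 1.61 (95% interval 0.14 to 3.09), the smallest p of any representative probe for this contrast (adjusted p = 0.703). Without C+P replicate 1 it was 0.95. A second probe shares 47 of its bases with the first (chr1:89685077-89685136) and had the same order of C, D and D+P. It measured 9.84, 10.10 and 9.86 in C, 9.62, 9.39 and 8.73 in D and 10.17, 10.20 and 10.17 in D+P. Its interaction was 1.11 (adjusted p = 0.665). The C+P arrays enter that value too, and its size without C+P replicate 1 is not given here. These 2 probes overlap and are not independent. The remaining tested probe of the gene (chr1:89688896-89688955) did not have this order, with differences of -0.04 without the drug and 0.03 for the drug in diabetic hearts and with all 12 arrays between 10.38 and 10.74. What the probes disagree on was not tested further, since no mm9 gene model was used here. The other 5 genes of the system (Atg3, Atg5, Atg7, Atg10 and Atg12) had differences between -0.06 and 0.29 without the drug. Atg7, the activating enzyme of both reactions, measured 9.45, 9.28 and 8.16 on the D+P arrays and between 8.90 and 9.56 on the other 9. Its diabetes difference under the drug was -0.20, and 0.20 without D+P replicate 3.

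**Figure D3:**
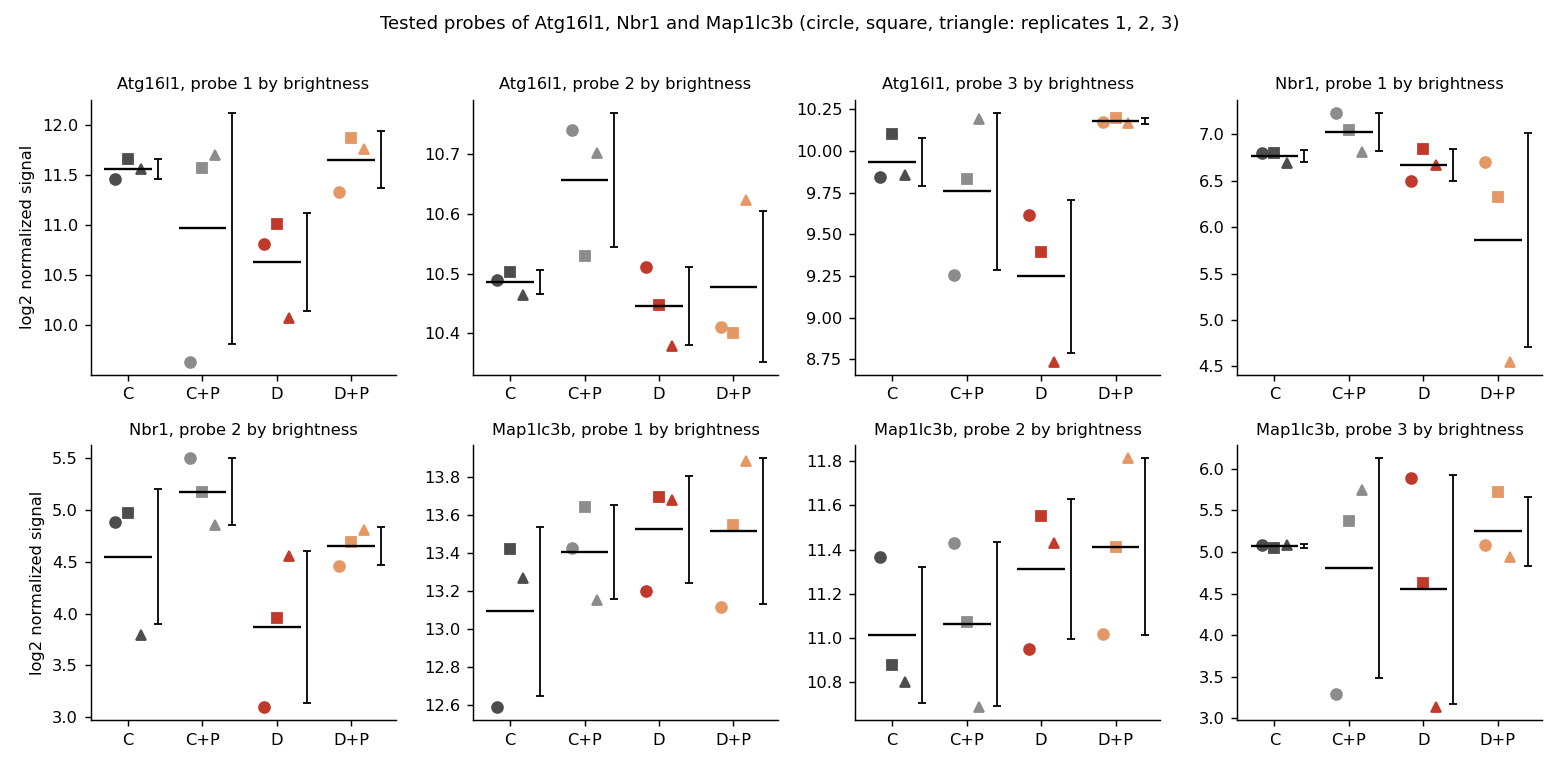
Log2 normalized signal on each array for every tested probe of Atg16l1, Nbr1 and Map1lc3b, with the group mean as a line and the standard deviation of 3 arrays as the bar beside it; vertical axes differ between panels and do not start at 0. Probes 1 and 3 of Atg16l1, which overlap, share an order of groups that probe 2 lacks, and the Nbr1 difference in D+P lies mostly in replicate 3 (4.55).

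The 4 ATG4 proteases, which trim ATG8 proteins before conjugation and release them afterwards, differed in sign. For Atg4d the C arrays measured 12.31, 12.01 and 11.99 and the D arrays 11.77, 11.73 and 11.93. The C+P arrays measured 12.38, 12.05 and 12.13 and the D+P arrays 11.99, 11.56 and 11.69. Every diabetic array was below every array of its non-diabetic counterpart. The difference averaged over both drug states was -0.37 (SE 0.12, adjusted p = 0.311), with -0.29 without the drug and -0.44 under the drug. Among representative probes this was the smallest adjusted p of the set. It has 1 probe on the array, at chr9:21078130-21078189 (mm9).

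Atg4a had the opposite sign. Its D arrays read 7.70, 7.72 and 7.66 and its C arrays 7.38, 7.42 and 7.03, which did not overlap. The difference without the drug was 0.42 (SE 0.18, adjusted p = 0.454). With pargyline the ranges overlapped, at 7.26, 7.61 and 7.82 in D+P and 7.39, 7.48 and 7.15 in C+P, and the difference was 0.22 (SE 0.18). Averaged over pargyline it was 0.32 (adjusted p = 0.397). With normexp background correction these values of Atg4a were 0.20 without the drug, -0.014 under it and 0.095 averaged. Atg4b had the smallest p of any member for the drug in non-diabetic hearts, with 8.72, 8.52 and 8.51 in C+P and 8.26, 8.25 and 8.19 in C. Its D arrays read 8.35, 8.01 and 8.09 and its D+P arrays 8.45, 8.03 and 8.29. The Atg4b difference was 0.35 (SE 0.16, adjusted p = 1.000), and 2 further probes of Atg4b gave 0.05 and 0.47. Atg4c differed by 0.33 in the interaction (95% interval -0.17 to 0.82). It measured 7.05, 6.92 and 6.89 on the C arrays, 6.62, 6.91 and 6.63 on the D arrays, 6.77, 6.85 and 6.99 on the C+P arrays and 6.91, 6.79 and 7.20 on the D+P arrays, and every pair of these ranges overlapped.

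ATG8 proteins coat the autophagosome. Map1lc3b encodes LC3B, whose protein the study used as its readout of autophagy. On its brightest probe the C arrays measured 12.59, 13.42 and 13.27, the D arrays 13.20, 13.70 and 13.68, the C+P arrays 13.42, 13.64 and 13.15 and the D+P arrays 13.12, 13.55 and 13.88. C replicate 1 was the lowest of the 12, and all pairs of groups overlapped. The difference was 0.43 without the drug (95% interval -0.17 to 1.03, adjusted p = 0.561), 0.11 under the drug (-0.49 to 0.71, adjusted p = 0.945) and -0.01 for the drug in diabetic hearts (-0.61 to 0.60). Without C replicate 1 the first of these was 0.18, and without D+P replicate 3 the second was -0.072. A second bright probe of Map1lc3b gave 0.30 and 0.35 for the first 2 of these, and on it C replicate 1 was the highest C array, at 11.37.

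Map1lc3a was 12.62, 12.56 and 12.79 in C and 12.61, 12.34 and 12.24 in C+P, a difference of -0.26 (SE 0.15, adjusted p = 1.000). Between D+P and D it was -0.23, with 12.27, 12.33 and 12.49 in D+P all just below 12.51, 12.74 and 12.52 in D. With diabetes it differed little (-0.07 and -0.04). The GABARAP family (Gabarap, Gabarapl1 and Gabarapl2) had differences between -0.14 and 0.14 without the drug and between -0.13 and 0.04 under the drug. For the drug in diabetic hearts all 5 ATG8 genes had a negative sign, from -0.23 to -0.01, and 0 of 5 were at an unadjusted p under 0.05. That sign was the same under the 3 other scalings run, but Map1lc3b and Gabarapl2 turned positive without D+P replicate 1 (0.19 and 0.23) and Gabarap without D replicate 1 (0.074).

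The cargo receptors were Sqstm1 (p62), Nbr1 and Optn. Sqstm1 measured 13.90, 13.43 and 13.34 in C and 12.90, 13.45 and 13.08 in D. The groups overlapped, and C replicate 1 was the highest of these arrays. The Sqstm1 difference of -0.41 without the drug was -0.06 under the drug. Nbr1 had the largest diabetes difference of any member under the drug, at -1.17 (SE 0.44, adjusted p = 0.602). Its D+P arrays measured 6.70, 6.33 and 4.55 and its C+P arrays 7.23, 7.04 and 6.81. The groups did not overlap, yet most of the distance came from D+P replicate 3, the only array on which this dim probe was not well above background. Without that replicate the difference was -0.51, and with normexp it was -0.49. Without the drug it was -0.10, with 6.80, 6.80 and 6.69 in C and 6.50, 6.84 and 6.67 in D, and the interaction was -1.07 (95% interval -2.43 to 0.29). A second, dimmer Nbr1 probe gave -0.52 under the drug and 0.78 for the drug in diabetic hearts, where the first gave -0.81. The value of -0.81 and the interaction of the first probe include D+P replicate 3 as well. Optn, which takes part in the removal of bacteria and mitochondria, differed by less than 0.1 in both diabetes comparisons.

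The 4 mitophagy genes Bnip3, Bnip3l, Fundc1 and Pink1 all had positive diabetes differences, with a median of 0.36 (log2) without the drug and 0.24 under it, although only 1 of 4 and 0 of 4 were at an unadjusted p under 0.05. Without the drug all 4 kept the sign in the other scalings run (75th percentile, normexp background correction and the deposited table). In that order their median was 0.47, 0.25 and 0.36 without the drug, and 0.17, 0.093 and 0.23 under it. For the differences under the drug 3 of 4 kept the sign with the 75th percentile and 3 of 4 with normexp. The exception was Fundc1 (-0.015 and -0.073). BNIP3 and BNIP3L (NIX) are receptors on the outer mitochondrial membrane, both induced by hypoxia, that bind ATG8 proteins directly. Bnip3 measured 13.01, 12.77 and 12.53 on the C arrays and 13.55, 13.20 and 12.99 on the D arrays. With the drug its C+P arrays read 13.29, 13.08 and 12.58 and its D+P arrays 13.08, 13.30 and 13.52. Neighbouring ranges overlapped. The difference averaged over both drug states was 0.40 (SE 0.16, adjusted p = 0.404), with 0.48 without the drug and 0.32 under the drug. With normexp the average of Bnip3 was 0.22, and the value under the drug was 0.075. Without C+P replicate 3 the value under the drug was 0.12.

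Bnip3l had the smallest adjusted p of any member for diabetes without the drug. Its C arrays read 10.37, 10.24 and 10.29 and its D arrays 11.44, 10.59 and 10.57, without overlap, and the difference was 0.56 (SE 0.24, adjusted p = 0.452). D replicate 1, the array with the widest spread between repeated spots, carried a large part of it: without that array the difference was 0.28. With pargyline the D+P arrays read 10.90, 10.70 and 10.95 and the C+P arrays 10.99, 10.43 and 10.52, which overlapped (0.20). A second Bnip3l probe gave 0.14 and -0.23 for the 2 diabetes comparisons.

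Fundc1, a receptor for hypoxic mitophagy, was 9.26, 9.30 and 9.24 in D and 9.20, 8.94 and 8.93 in C, a difference of 0.24 that came to 0.03 under the drug. PINK1 is the kinase that accumulates on depolarized mitochondria and recruits Parkin. Pink1 measured 14.29, 14.22 and 14.27 on the C arrays, 14.57, 14.39 and 14.17 on the D arrays, 14.24, 14.26 and 14.26 on the D+P arrays, and only 14.10, 14.07 and 13.76 on the C+P arrays. The C+P arrays were below all others, with a difference of -0.28 for the drug in non-diabetic hearts (95% interval -0.62 to 0.06, adjusted p = 1.000) and a diabetes difference of 0.28 under the drug (-0.06 to 0.61, adjusted p = 0.718). Without C+P replicate 3 these were -0.17 and 0.17. Both comparisons share the C+P arrays.

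**Figure D4:**
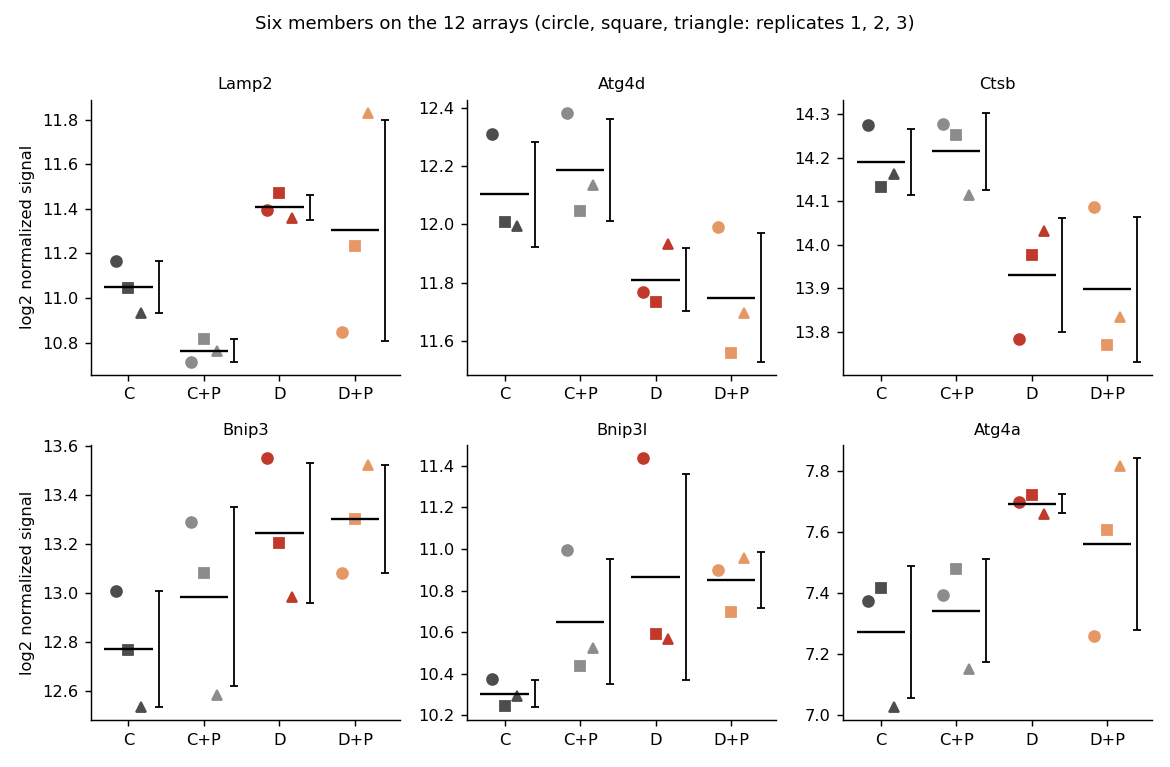
Log2 normalized signal of the 6 members at an unadjusted p under 0.05 for diabetes averaged over both drug states, on each of the 12 arrays, with the group mean as a line and the standard deviation of 3 arrays as the bar beside it; vertical axes do not start at 0. Lamp2 is higher, and Atg4d and Ctsb are lower, on every diabetic array than on every array of the matching non-diabetic group, whereas Bnip3 overlaps, and Bnip3l and Atg4a overlap between D+P and C+P.

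Among the proteins of the lysosome membrane, Lamp2 separated each diabetic group from its matching non-diabetic group. LAMP2 is a heavily glycosylated membrane protein needed for fusion of autophagosomes with lysosomes. On its brightest probe (chrX:35772774-35772833, mm9) the C arrays read 11.17, 11.05 and 10.93 and the D arrays 11.39, 11.47 and 11.36. With the drug the C+P arrays read 10.72, 10.82 and 10.76 and the D+P arrays 10.85, 11.23 and 11.83. No diabetic array overlapped its non-diabetic counterpart. The difference was 0.36 (SE 0.22, adjusted p = 0.549) without the drug, 0.54 (SE 0.22, adjusted p = 0.630) under the drug, and 0.45 (SE 0.15, adjusted p = 0.328) averaged over both drug states. The D+P arrays were spread widely, and without D+P replicate 3 the difference under the drug was 0.28.

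Fibroblast markers were read beside Lamp2, and they differed in direction. All 5 listed were tested, 4 of them well above background on every array. Of the 5, 3 (Dcn, Lum and Pdgfra) had a positive diabetes difference both without and under the drug. At an unadjusted p under 0.05 there were 2 for the average. Col1a1 and Tcf21 were lower in both comparisons. In the order C, D, C+P and D+P, Col1a1 had means of 10.48, 10.30, 10.54 and 10.28, and Tcf21 of 4.99, 4.77, 5.07 and 5.04. Lum, a proteoglycan of the matrix, differed by 0.42 and 0.44, with no overlap in either, and Pdgfra by 0.38 and 0.52. Neither passed the adjusted threshold. Pdgfra read 8.12, 8.95 and 8.73 in C+P and 8.59, 9.39 and 9.38 in D+P, replicate 1 being the lowest in each. The summed normalized signal of the 5 fibroblast markers was 89.7% to 90.8% from Dcn. It ranged from 39763 to 44932 in C and from 42449 to 46519 in D. With the drug it ranged from 36455 to 39619 for C+P and from 40147 to 50691 for D+P. The part of these cells in the Lamp2 values was not tested.

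A second Lamp2 probe (chrX:35777505-35777564) had the same order, with 9.29, 9.21 and 9.0 in C and 9.68, 9.59 and 9.56 in D, and with 9.23, 9.08 and 8.90 in C+P and 9.23, 9.43 and 9.42 in D+P. Averaged over pargyline it was 0.37 higher in diabetic hearts (adjusted p = 0.246). A dimmer Lamp2 probe (chrX:35806215-35806274) had the opposite sign without the drug, at -0.52 (adjusted p = 0.506), and gave 0.09 under the drug. Agreement between probes was thus partial for Lamp2, as for much of the set: of 23 members with several tested probes, 12 had a probe of opposite sign without the drug and 11 under the drug.

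None of the other 4 membrane members was at an unadjusted p under 0.05. Without and under the drug, in that order, Lamp1 differed by -0.02 and -0.26, Mcoln1 (the lysosomal calcium channel TRPML1) by -0.08 and 0.07, Laptm4a by 0.42 and 0.10, and Cd63 by 0.09 and 0.28. The Cd63 value rests on D+P arrays of 13.62, 13.60 and 13.63 above C+P arrays of 13.41, 13.37 and 13.22. Lamp1 measured 14.15, 14.36 and 13.30 in D+P, replicate 3 again being the lowest of the 12, and without that array the Lamp1 difference under the drug was 0.060 in place of -0.26.

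The lysosome enzymes were the proteases Ctsa, Ctsb, Ctsd, Ctsl and Ctsz, the hexosaminidase subunit Hexa and the glycogen-degrading Gaa. Ctsb, which encodes the cysteine protease cathepsin B, read 14.28, 14.13 and 14.16 on the C arrays against 13.78, 13.98 and 14.03 on the D arrays, and 14.28, 14.25 and 14.11 on the C+P arrays against 14.09, 13.77 and 13.83 on the D+P arrays. Both diabetic groups were wholly below their counterparts. The difference was -0.26 (SE 0.15, adjusted p = 0.525) without the drug, -0.32 (SE 0.15, adjusted p = 0.671) under the drug and -0.29 (SE 0.10, adjusted p = 0.347) averaged over both drug states. The size of the Ctsb difference depended on the scaling: without the drug it was -0.053 with the 75th percentile and -0.039 with normexp, and the average was -0.21 and -0.091. Ctsb has 1 probe here, at chr14:63761826-63761885 (mm9). The other 6 enzymes had differences between -0.16 and 0.13 without the drug and between -0.25 and 0.31 under the drug. Gaa measured 13.02, 13.09 and 12.94 in D and 13.21, 13.12 and 13.12 in C, without overlap and with a mean difference of -0.13. With the 75th percentile this difference was 0.066. The D+P arrays of Gaa reached from 12.08 to 13.18, replicate 1 being the lowest of the 12 arrays, and without that array the Gaa difference under the drug was 0.085 in place of -0.25.

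Macrophages are rich in cathepsins, and their markers were read beside Ctsb. Of 10 listed macrophage markers 9 had a probe, 8 were tested and all 8 were well above background on every array. Without the drug all 8 had a negative diabetes difference (median -0.31), and under the drug 7 of 8 did (median -0.59). These are the signs of the representative probes: of 4 of these genes with several tested probes, 3 (Itgam, Lyz2 and Csf1r) had a further probe of opposite sign without the drug, and 1 (Csf1r) under it. Their summed normalized signal ranged from 46367 to 52977 for C and from 32159 to 47297 for D, and with the drug from 42919 to 49196 for C+P and from 39982 to 45204 for D+P. The representative Itgam probe made up 62.9% of that sum in C and 59.4% in D, and a dimmer Itgam probe had means of 5.45 in C and 6.37 in D. At an unadjusted p under 0.05 there were 1 of 8 without the drug, 4 under it and 5 for the average, and none of the 8 passed the adjusted threshold. Cd163, a scavenger receptor of resident macrophages, had the largest negative difference without the drug, at -1.09, with -0.82 under it, and its groups overlapped in neither. The summed signal of the 6 cardiomyocyte markers overlapped between all groups, from 581980 to 706338 in D and from 627669 to 664108 in C. The cardiomyocyte sum is likewise weighted to the brightest markers. Ryr2, the calcium release channel, had the largest differences of the 6, at -1.12 without the drug (adjusted p = 0.306) and -0.85 under it (adjusted p = 0.559), and its groups did not overlap in either. A second Ryr2 probe had means of 12.13 in C and 12.36 in D. The part of either cell type in the Ctsb values was not tested.

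**Figure D5:**
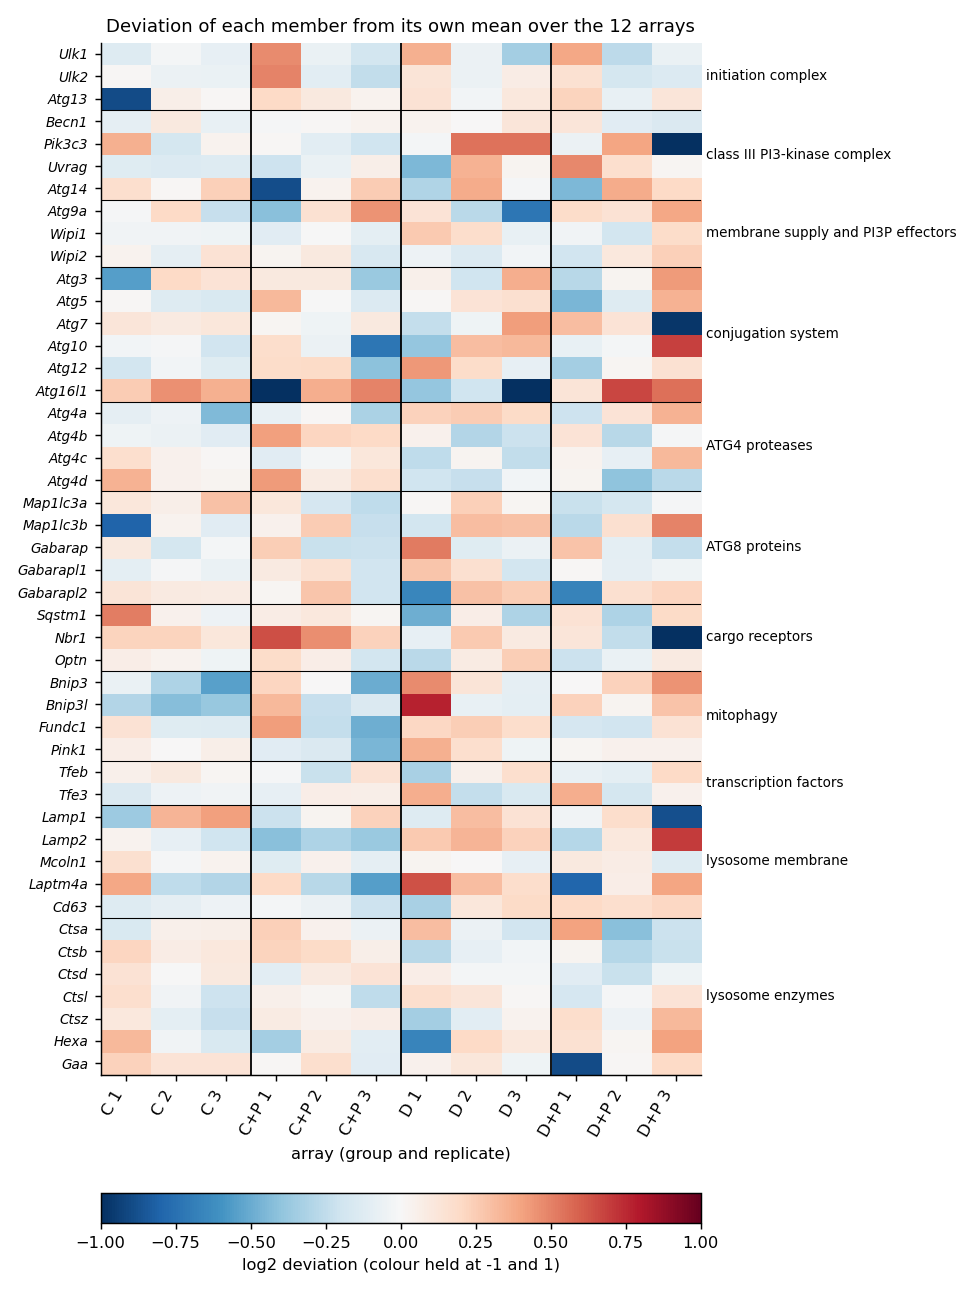
Deviation of each member's representative probe from its own mean over the 12 arrays, on the log2 scale and held at -1 and 1 for colour, with genes grouped by role and arrays by group. Single arrays stand out more than groups do: D+P replicate 3 holds 7 members more than 0.5 from their mean and D replicate 1 holds 5, whereas C replicate 2 and C+P replicate 2 hold 0.

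Single arrays changed the size or the sign of many values. Leaving out 1 array turned the sign of 16 of the 46 members without the drug and of 28 under it. Members at an unadjusted p under 0.05 in a comparison kept their sign there. D+P replicate 3 was the highest of the 12 arrays for 12 members and the lowest for 7, and D replicate 1 the highest for 10 and the lowest for 8. On D+P replicate 3, 4 members (Pik3c3, Atg7, Nbr1 and Lamp1) lay more than 0.5 below their own mean and 3 more than 0.5 above it. Its repeated spots had a median coefficient of variation of 12.8%.

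With pargyline, no member approached the threshold. For the drug in non-diabetic hearts, 3 members lay wholly higher (7.35% of all tested probes) and 2 wholly lower (8.02%), where 15.4% of all probes did not overlap. The 5 were Atg4b, Bnip3l and Nbr1 (higher) and Pink1 and Lamp2 (lower). For the drug in diabetic hearts, 2 lay wholly higher (Atg16l1 and Atg9a, 7.92% of all probes) and 3 wholly lower (Fundc1, Map1lc3a and Ctsd, 9.12%), where 17.0% of all probes did not overlap. The 3 smallest p-values for the drug in diabetic hearts belonged to Atg16l1 (adjusted p = 0.386), Atg9a (adjusted p = 0.414) and Nbr1 (adjusted p = 0.437). Endothelial markers stood beside these values. All 5 listed were tested and well above background on every array. For the drug in diabetic hearts Kdr differed by 0.75 (adjusted p = 0.176) and Tie1 by 0.59 (adjusted p = 0.354). Tie1 read 9.57, 9.59 and 9.55 in D and 10.05, 9.76 and 10.67 in D+P, replicate 3 being the highest. All 5 markers had a positive difference in this comparison (median 0.14). Their summed normalized signal ranged from 7381 to 9864 in D and from 10826 to 13647 in D+P, without overlap, and Kdr alone made up 56.5% of it in D and 64.0% in D+P. The part of these cells in the members' values was not tested. Since slide and pargyline coincide, the members' differences are differences between slides as much as between treatments.

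A wider list of other genes of these pathways (further lysosomal hydrolases, subunits of the proton pump, membrane tethers and mitophagy factors) was read in the same way. It had 96 genes with a probe, of which 94 were tested. By limma 0 of 94 passed the adjusted threshold in each of the 6 comparisons, and at an unadjusted p under 0.05 there were 7 for diabetes without the drug, 3 for diabetes under the drug, 13 for diabetes averaged over both drug states, 1 for the drug in non-diabetic hearts, 7 for the drug in diabetic hearts and 2 for the interaction. As shares of the 94 these were 7.45%, 3.19%, 13.8%, 1.06%, 7.45% and 2.13%, where all tested probes had 10.8%, 7.46%, 11.4%, 4.43%, 13.3% and 7.03%, so the list lay above all probes only for the average. The smallest p for diabetes without the drug was that of Wdr45b, which encodes a reader of phosphatidylinositol 3-phosphate, at -1.06 (SE 0.31, adjusted p = 0.322), and it had the smallest p for the drug in diabetic hearts as well, at 1.00 (adjusted p = 0.242). These comparisons share the D arrays. Phb2, an inner-membrane prohibitin that acts as a mitophagy receptor, had the smallest p for diabetes averaged over both drug states, at 0.39 (SE 0.12, adjusted p = 0.268). Snap29, a fusion protein of autophagosome and lysosome, had the smallest p for diabetes under the drug, at -0.50 (SE 0.16, adjusted p = 0.514). Psap, the precursor of the lysosomal saposins, had it for the drug in non-diabetic hearts, at -0.50 (adjusted p = 1.000).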

How the data were processed

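Messenger RNA was hybridized to 1-colour Agilent arrays. The deposited scanner files give signal intensity per spot, which per the file headers came from Feature Extraction 12.0.0.7 with mm9 probe positions; the authors also deposited a table of quantile-normalized intensity, used here as an alternative. Here the processed intensity (gProcessedSignal) was taken to log2, spots marked as outliers in the deposited files were set to missing, the 59305 non-control spots were quantile-normalized, and replicate spots were averaged per probe. The 30859 probes that were flagged positive and significant on 50% or more of each group's arrays were tested. All 12 arrays entered 1 limma fit (limma 3.58.1, R 4.3.3) with the 4 groups as terms, and p-values were adjusted by Benjamini-Hochberg over all tested probes. Intervals are 95% intervals of that fit, and the number of arrays limits their precision.

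Each gene is represented by its tested probe with the highest mean. Values are given on every array for members at an unadjusted p under 0.05 in a diabetes comparison, for the 3 smallest p-values of each other contrast, and for Map1lc3b; Tfeb, Tfe3 and arrays that stood apart were added after values were seen. Members and lists were chosen with earlier results of these data known. Of 92 member probes, 67 matched a RefSeq symbol by accession, all 67 equal to the name in the file. Promoters are RefSeq windows of GRCm38.p6, searched with Python 3.11.15. The fit was tested on simulated data. Mice were separate animals, so p-values measure spread between mice and arrays together.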

Additional observations from a re-analysis of the deposited data

How the results depend on the processing

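No member passed the adjusted threshold in any of the 6 comparisons under any alternative, whose smallest adjusted p was 0.0877 (Lamp2 for diabetes averaged over both drug states, with array weights). Of the members at an unadjusted p under 0.05, the representative probe kept its sign in each of those comparisons, but other probes of the gene had the opposite sign for Bnip3l (-0.045) and Lamp2 (-0.21) in the average and for Atg16l1 (-0.14) in the interaction. Of all 46 members, 24 changed sign in at least 1 alternative for diabetes without the drug, 32 under it and 23 on average. The alternatives were scaling to the 75th percentile, normexp background correction, the deposited table, dim values as missing, no filter or a stricter one, array weights, fits of only the groups compared (which give no value for the average or the interaction), the methods' t-test, blocks for slide and slide column, other probes of a gene, and each array left out. Counts of members at an unadjusted p under 0.05 ran from 0 to 5 without the drug (6.18% to 18.9% of all probes), from 0 to 10 under it (5.55% to 12.1%), from 3 to 11 for the average (7.92% to 20.9%), from 0 to 3 for the drug in non-diabetic hearts (2.95% to 14.1%), from 0 to 3 in diabetic hearts (8.34% to 18.7%) and from 0 to 2 for the interaction (4.52% to 11.1%). Counting a gene if any of its tested probes was there gave 6 without the drug and 4 for the drug in diabetic hearts, for which all probes give no matching share. Leaving out the 3 arrays in slide column 1 together was chosen after seeing the data. It gave 2 members at an unadjusted p under 0.05 without the drug (18.6% of all probes), 10 under it (12.1%) and 11 for the average (20.9%). After adjustment 0 members were called, where 0%, 0.0907% and 0.366% of all probes were, in that order. The cause was not tested.

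The members' median moved by more than the spread between replicates in a few settings. With 75th percentile scaling it was 0.15 without the drug, -0.028 under the drug, -0.16 for the drug in diabetic hearts and -0.23 for the interaction. Without single arrays it ran from -0.047 to 0.076 under the drug (lowest without C+P replicate 3, and -0.028 without D+P replicate 3) and from -0.13 to -0.0044 for the interaction (highest without C+P replicate 1). The other medians ran from 0.017 (without D replicate 3) to 0.078 without the drug, from -0.026 to 0.050 (without C+P replicate 3) for the drug in non-diabetic hearts and from -0.080 to -0.023 in diabetic hearts. Without the arrays in slide column 1 the interaction median was 0.042. The sign of the median under the drug, for the drug in non-diabetic hearts and for the interaction thus depended on these choices, and the cause was not tested.

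The replicate number did not pair the samples: deviations of same-numbered arrays correlated between -0.20 and 0.20 (median 0.03), those of differently numbered ones between -0.19 and 0.21. With the replicate number as a block the median was 0.07 without the drug and 0.04 under the drug. In these comparisons 0 members were called, where 0% and 0.0259% of all probes were. At an unadjusted p under 0.05 there were 1 (10.3% of all probes) and 3 (7.16%).

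With 3 arrays per group, 3 against 3 exact permutations cannot give a two-sided p below 0.1, and the calls rest on the spread that limma shares across probes.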
